A study of Mus musculus with 60 samples.

Results

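Tcf4, Tcf3 and Tcf12 encode the E-proteins, and Id1, Id2, Id3 and Id4 encode the ID factors (inhibitor of DNA binding). These 7 genes were followed through the 12 peak lists of the series, and every peak whose assigned gene symbol was a member was taken. The lists held 419 such peaks of 256375 in all, and 7 of the 16994 gene symbols they listed. Tcf4 alone accounted for 322 of the 419. The genes were chosen by their peaks in these lists, above all the very wide H4K8ac peaks over Tcf4, so where their peaks lie, how wide they are and in which lists they occur are given as description, with no test.

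The peaks came from CUT&RUN-seq, in which an antibody directs a nuclease to the chromatin that carries a histone mark and the released DNA is sequenced. H4K8ac, acetylation of histone H4 at lysine 8, is a permissive mark, and H3K27me3, trimethylation of histone H3 at lysine 27, is the repressive mark laid down by Polycomb complexes. Nuclei were those of hippocampal neurons of male Emx1-NuTRAP mice, in which Emx1-Cre, active in the excitatory lineage of the forebrain and its progenitors, switches on a tagged nuclear envelope protein; exercised and sedentary mice both carried these alleles. The exercised mice ran voluntarily on a wheel from postnatal day 21 to 41, and the sedentary mice were housed without running over the same days. Each condition had 3 arms: SIT (simultaneous isolation of nuclei and translating mRNA from both hippocampi of a mouse, 4 samples per mark), and separate isolations from the left or the right hippocampus (3 samples per mark each). These are the labelled numbers. Several exercised H4K8ac libraries, most of them from the separate isolations, were left out upstream for a high false discovery rate, and some samples of both conditions were left out of the study of exercise as outliers, so a list may rest on fewer samples than labelled. For each mark, condition and arm there was 1 pooled list, so n = 1 list and no value below has a replicate error. An exact permutation of condition within the 3 arms, two-sided, could not give a p under 0.25, and none was run.

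H4K8ac lists held 12168 to 38136 peaks and H3K27me3 lists 9899 to 25693, and the number of reads behind each list is not given in the sources used here. Of 8 markers of Emx1-lineage excitatory neurons, 8 had an H4K8ac peak in at least 1 list and 5 in all 6, among them Neurod2, Neurod6, Camk2a and Tbr1. Among 21924 protein-coding genes 52.0% had an H4K8ac peak in at least 1 list. Other cell types also had marked genes, of which only the astrocyte set stood well above that share. At least 1 H4K8ac list held 3 of 8 interneuron, 7 of 8 astrocyte, 4 of 8 oligodendrocyte-lineage and 5 of 8 microglial markers. Within these lists the members differed: P2ry12, Mbp, Cspg4, Aqp4, Slc1a2 and Dlx2 were in all 6 H4K8ac lists, and Cx3cr1, Tmem119, Itgam, Olig1, Olig2, Sox10, Pdgfra, Sox9, Gad2, Dlx1, Dlx5, Dlx6 and Lhx6 in none. The part of these other cells in the values below was not tested.

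E-proteins are class I basic helix-loop-helix (bHLH) transcription factors. These factors dimerise with each other or with lineage-restricted class II bHLH factors such as the NeuroD and neurogenin proteins, and the dimers bind E-boxes, short sites with the letters CANNTG. ID factors have the helix-loop-helix but lack the basic region, so a dimer of an E-protein with an ID factor cannot bind DNA. In the brain ID factors are known for holding progenitors and glia in an undifferentiated state downstream of bone morphogenetic protein (BMP) signalling, and TCF4 is the E-protein most abundant in the postnatal forebrain, mutated in Pitt-Hopkins syndrome.

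The sequences below show the stretches of H4K8ac most often shared at Id2 and Tcf12, and the promoter windows of 3 ID genes that lay inside or outside a mark. They were read 5′ to 3′ along the strand of the gene in GRCm38.p6. Capitals mark every CANNTG, the E-box, which reads the same class of letters on both strands, and every TGACG or CGTCA, the core of the cyclic-AMP response element. For Id2, the first sequence is the centre of the stretch covered by H4K8ac in 3 lists (chr12:25097187-25097486, minus strand), upstream of the 5′-most GENCODE start (positions from a start are negative upstream and positive downstream). The next is its RefSeq promoter window (chr12:25096043-25096342, minus strand), 798 to 1097 bp downstream of the GENCODE start, which no H4K8ac or H3K27me3 peak touched. For Id3, the RefSeq promoter window (chr4:136143572-136143871, plus strand) lay whole inside an H3K27me3 peak in 6 of 6 lists. For Id4, the RefSeq promoter window (chr13:48260866-48261165, plus strand) lay at -362 to -63 bp from the GENCODE start and was inside an H3K27me3 peak in 1 list of 6. For Tcf12, the sequence is the centre of an intergenic stretch covered by H4K8ac in 6 of 6 lists (chr9:72133490-72133789, minus strand).
Id2 shared H4K8ac stretch: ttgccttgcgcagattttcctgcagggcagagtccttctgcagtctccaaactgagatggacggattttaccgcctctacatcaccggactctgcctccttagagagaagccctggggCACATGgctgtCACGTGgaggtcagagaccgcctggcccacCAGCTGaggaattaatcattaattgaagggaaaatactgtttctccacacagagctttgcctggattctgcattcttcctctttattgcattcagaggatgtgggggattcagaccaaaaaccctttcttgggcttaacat
Id2 RefSeq promoter: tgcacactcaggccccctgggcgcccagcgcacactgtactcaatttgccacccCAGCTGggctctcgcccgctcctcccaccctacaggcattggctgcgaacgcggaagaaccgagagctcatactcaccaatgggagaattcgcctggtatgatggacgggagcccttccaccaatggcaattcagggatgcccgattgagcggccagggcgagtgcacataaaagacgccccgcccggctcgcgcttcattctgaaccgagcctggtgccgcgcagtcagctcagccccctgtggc
Id3 RefSeq promoter: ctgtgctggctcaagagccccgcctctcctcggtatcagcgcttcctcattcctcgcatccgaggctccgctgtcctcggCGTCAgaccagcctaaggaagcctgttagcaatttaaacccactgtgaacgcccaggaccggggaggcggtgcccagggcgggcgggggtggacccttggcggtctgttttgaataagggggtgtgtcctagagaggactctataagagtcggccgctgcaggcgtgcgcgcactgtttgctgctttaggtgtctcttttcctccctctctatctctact
Id4 RefSeq promoter: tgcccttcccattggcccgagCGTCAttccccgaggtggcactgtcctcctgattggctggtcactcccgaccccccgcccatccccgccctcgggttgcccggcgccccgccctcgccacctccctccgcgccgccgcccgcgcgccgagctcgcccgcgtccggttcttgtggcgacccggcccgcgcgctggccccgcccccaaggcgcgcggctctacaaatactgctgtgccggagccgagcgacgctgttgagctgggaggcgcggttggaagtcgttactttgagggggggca
Tcf12 upstream H4K8ac stretch: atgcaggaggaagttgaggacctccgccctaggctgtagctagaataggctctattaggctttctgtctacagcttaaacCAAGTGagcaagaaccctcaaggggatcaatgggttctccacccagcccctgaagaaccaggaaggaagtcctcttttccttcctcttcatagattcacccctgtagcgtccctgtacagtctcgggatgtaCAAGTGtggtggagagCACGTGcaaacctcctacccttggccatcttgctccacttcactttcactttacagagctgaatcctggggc

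The Id2 H4K8ac stretch held 3 E-boxes, the Tcf12 stretch held 3, and each had 1 with the letters CACGTG. No share over all peaks was computed for CACGTG or for a count of 3. The GC content of the Id2 and Tcf12 stretches was 50% and 51.7%. At least 1 CANNTG was found in 80.1% of the central 300 bases of 155957 H4K8ac peaks, where the median GC content was 44.3%, so holding an E-box did not set these stretches apart. CAGCTG, which the Id2 stretch and the Id2 promoter window each held once, was found in 15.1% of the H4K8ac peaks and 16.3% of 32851 RefSeq promoter windows. The promoter windows of Id3 and Id4 held no CANNTG, against 72.3% of all promoter windows with at least 1, and each held 1 TGACG or CGTCA, found in 20.8% of the windows. CAGGTG or CACCTG, in 20.2% of the windows and 17.0% of the peaks, was in none of the 5 sequences. The RefSeq windows of Tcf3 and of Tcf12, 1 and 3 in number, held 1 or 2 E-boxes each and touched no peak of either mark. The table matched 5 of the 7 genes. Tcf4 and Id1 had no entry.

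No member was assigned both marks, and of all 16994 listed symbols 23.5% were. H4K8ac was assigned to Tcf4 and Tcf12 in 6 of 6 lists and to Id2 in 4 of 6, and to Tcf3, Id1, Id3 and Id4 in none. H3K27me3 was assigned to Id3 and Id4 in 6 of 6 lists and to Id1 and Tcf3 in 4 of 6, and to Tcf4, Tcf12 and Id2 in none. Among all genes listed at least once for H4K8ac, 24.1% were in all 6 lists, and for H3K27me3 38% were. The H3K27me3 peak nearest to the Tcf4 gene was 133559 to 152449 bp away in the 6 lists, that nearest to Tcf12 37918 to 69659 bp, and that nearest to Id2 21834 to 27844 bp. The nearest H4K8ac peak was 27925 to 38871 bp from Id1, 13049 to 221915 bp from Id3, and 246754 to 327859 bp from Id4. From Tcf3 it was 1513 to 128198 bp away, so that in the exercised SIT list H4K8ac came closer to Tcf3 than H3K27me3 did in any list.

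**Figure D1:**
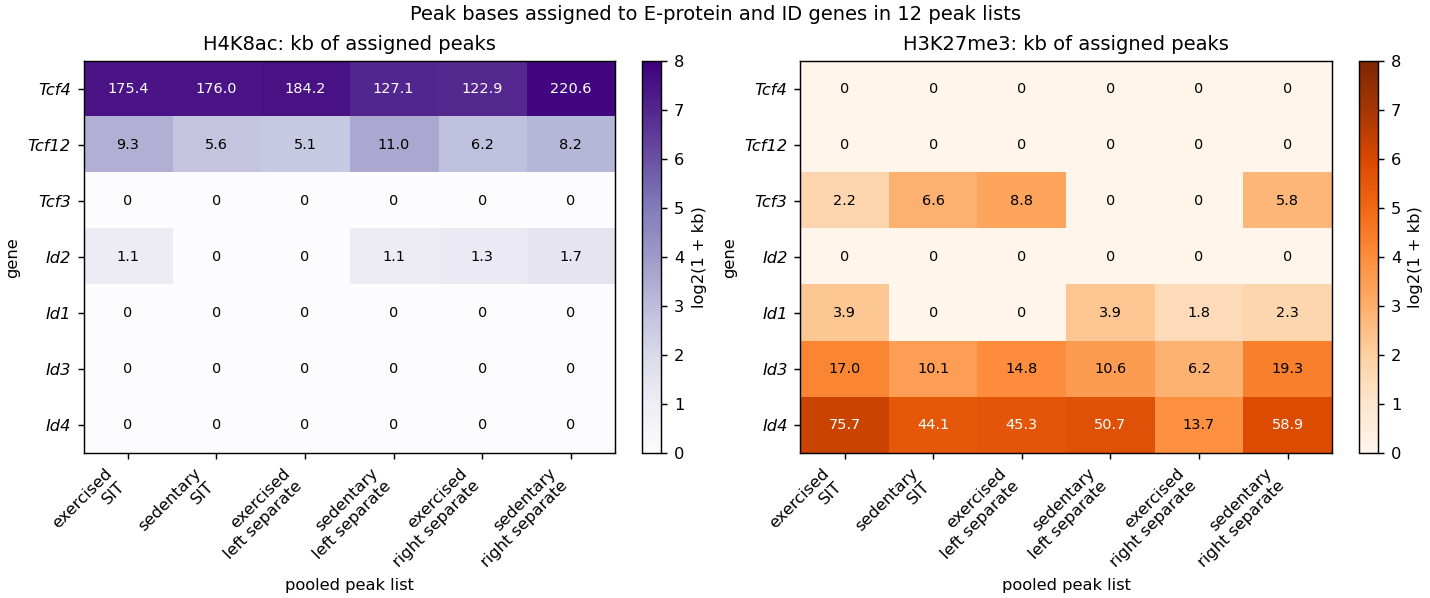
Kb of assigned peaks for each gene (rows) in each of the 6 pooled lists per mark (columns); the number in a cell is the kb, and the colour is log2(1 + kb). Tcf4 ranges from 122.9 to 220.6 kb in the H4K8ac panel and is 0 throughout the H3K27me3 panel, where Id4 ranges from 13.7 to 75.7 kb.

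Tcf4 is encoded on the plus strand of chromosome 18 from 69343356 to 69689079 (ENSMUSG00000053477), over 346 kb with 58 annotated start sites. It carried one of the largest H4K8ac domains of the genome in these lists. In the SIT arm the exercised list assigned 175 kb of H4K8ac peaks to Tcf4 and the sedentary list 176 kb. In the left arm the exercised list gave 184 kb and the sedentary list 127 kb. In the right arm the exercised list gave 123 kb and the sedentary list 221 kb. The sedentary right list was thus the highest, the exercised right and sedentary left lists were the lowest, and the exercised and sedentary lists overlapped in range. Among all genes ranked by assigned H4K8ac bases, Tcf4 was 1 in 4 lists, 4 of 10739 in the exercised SIT list and 14 of 10221 in the sedentary left list, where the rank was 26 with the widest 50% of peaks and 30 with equal peak numbers in the arm. The first gene other than Tcf4 was Celf2 in 4 lists, St6galnac3 in the exercised left list and Anks1b in the sedentary right list. Tcf4 had 1.51 times the bases of St6galnac3 in the exercised left list, but 0.504 times those of Celf2 in the sedentary left list.

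H4K8ac peaks covered 46.4% of the Tcf4 gene in the exercised SIT list and 47.8% in the sedentary one, 49.2% and 33.8% in the left lists, and 33.2% and 59.4% in the right lists. Across 2492 protein-coding genes of at least 100 kb, the median share covered was 0.233 to 2.33% in the 6 lists. Tcf4 ranked 2 by this share in 4 lists, 7 in the exercised SIT list and 21 in the sedentary left list, and Nfix, another transcription factor gene, ranked first in every list. Exons and introns of Tcf4 were covered alike in the exercised SIT list, at 44.2% of 27382 exonic bases and 46.6% of 318342 intronic bases. The exercised right list stood apart, with 18.8% of exonic and 34.5% of intronic bases. Of the 322 Tcf4 peaks, 188 were classed as intronic, 96 as promoter, 14 as distal intergenic and 13 as exonic. The 500 kb upstream of the gene were covered at 6.36 to 12.5%, and the 500 kb downstream at 0.678 to 2.26%.

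**Figure D2:**
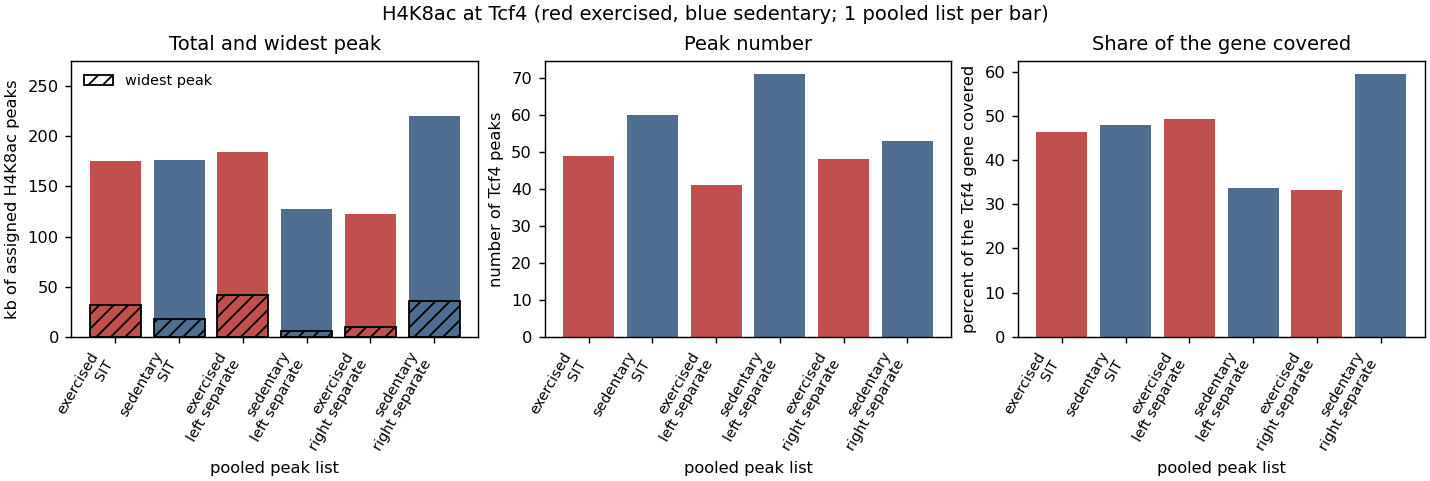
Bars give 1 pooled H4K8ac list each: kb of peaks assigned to Tcf4 with the widest peak hatched (left), number of Tcf4 peaks (middle) and percent of the gene covered (right). The sedentary left list has the most peaks, 71, and the narrowest widest peak, 5499 bp.

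Tcf4 had 49 and 60 peaks in the exercised and sedentary SIT lists, 41 and 71 in the left lists, and 48 and 53 in the right lists, so the exercised list had fewer in each arm. The whole lists held 38136 exercised and 30358 sedentary peaks in SIT, 12168 and 36425 in the left arm, and 13715 and 25159 in the right arm, so in the left and right arms the whole list was lower by a larger factor than Tcf4 was. Its widest peak measured 31316 bp in the exercised SIT list and 17422 bp in the sedentary one. In the left arm it measured 41266 bp in the exercised list and 5499 bp in the sedentary list. In the right arm it measured 10322 bp in the exercised list and 35468 bp in the sedentary list. It was the widest of all peaks in the exercised SIT, exercised left and sedentary right lists, number 3 of 30358 in the sedentary SIT list, 12 of 13715 in the exercised right list and 574 of 36425 in the sedentary left list. The direction of exercised against sedentary width therefore differed between arms.

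The 6 widest peaks all lay in the same stretch of the gene, from 211 to 252 kb downstream of its start, inside the 41266 bp peak of the exercised left list. Each other list covered 44.8 to 96.0% of that peak, the least in the sedentary left list. The share of Tcf4 peaks that were at least 5 kb wide was 12.2% (exercised) and 13.3% (sedentary) for SIT, 26.8% and 2.82% for the left arm, and 12.5% and 17.0% for the right arm. Among all peaks of the same lists, such peaks made up 0.807 to 3.17%. The median Tcf4 peak was less exceptional than its widest. It measured 1743 bp against a list median of 1819 bp in the exercised SIT list, 1352 against 1453 bp in the sedentary left list, and was above the list median in the other 4, the most in the sedentary SIT list at 2026.5 against 1265 bp.

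**Figure D3:**
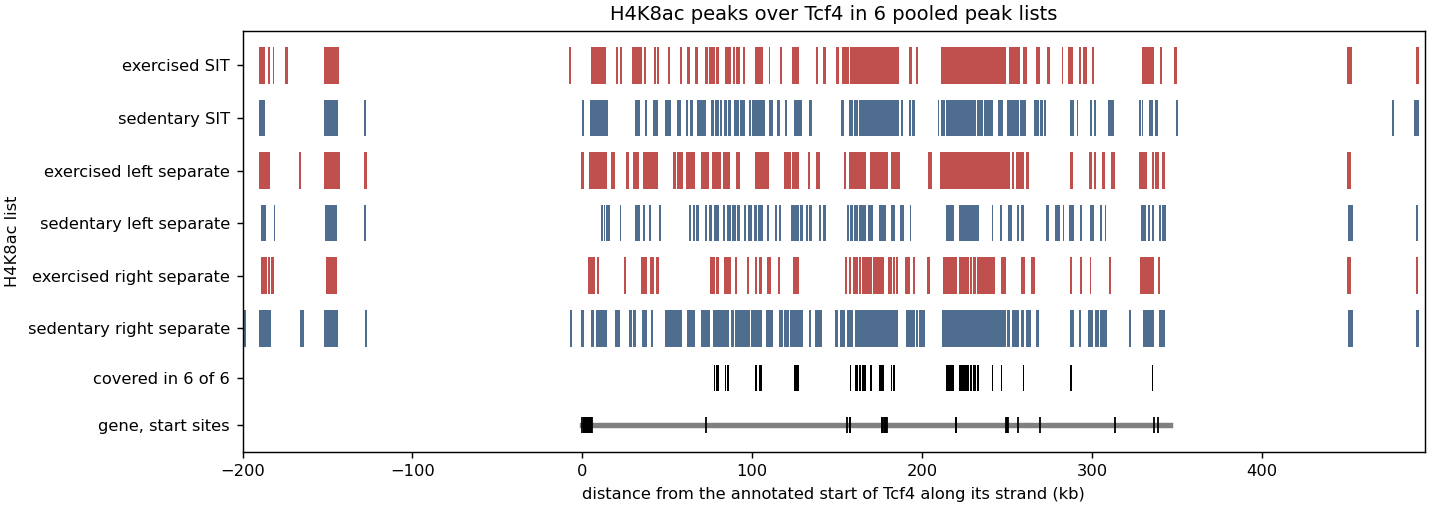
H4K8ac peaks around Tcf4 in the 6 pooled lists (red exercised, blue sedentary), placed by distance in kb from the annotated start of the gene along its strand; black blocks are stretches covered in 6 of 6 lists, the grey bar is the gene and ticks are its annotated start sites. The longest unbroken blocks sit between 211 and 252 kb, and the sedentary left list is broken into more, narrower peaks.

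The shared core of the domain was smaller than any single list. Of the 345724 bases of the gene, 83.7% were covered in at least 1 list, 49.4% in at least 3 and 10.6% in all 6. The bases shared by 6 lists formed 33 stretches with a median of 783 bp, 13 of them of 1 kb or more, and 36807 bp in sum. The longest, of 4657 bp, began 222 kb downstream of the start. With the gene divided into 10 bins of equal length, bin 7, from 207 to 242 kb, held 39.1% of the shared bases, and it was covered at 77.6 to 90.8% in 5 lists and 46.6% in the sedentary left list. No base of bins 1 and 2 was covered in all 6 lists. The sedentary left list limited this core: the other 5 lists shared 60161 bp, 1.63 times the value with it.

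Annotated start sites of Tcf4 differed in how many lists covered them. Of the 58, 7 were covered in 6 of 6 lists, 12 in 5, and 12 in none. Of the 7, 6 lay 176 to 178 kb inside the gene and 1 at 158 kb, where shorter TCF4 isoforms begin. The 5′-most start site was covered in 3 lists, the sedentary SIT, exercised left and sedentary right lists, and in the sedentary left list the nearest peak was 11051 bp from it. A group of 11 start sites, 1.13 to 3.004 kb downstream of the 5′-most one, was covered in none of the 6 lists. The number covered was 25 in the exercised and 39 in the sedentary SIT list, 43 and 16 in the left lists, and 22 and 37 in the right lists. Outside the gene, a stretch of 4406 bp at -151 to -146 kb was covered in 6 of 6 lists and its peaks were assigned to Tcf4.

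Exercised and sedentary lists were compared for Tcf4 within each arm. The ratio of exercised to sedentary Tcf4 bases was 0.996 in SIT, 1.45 in the left arm and 0.557 in the right arm. The lists themselves differed in size, with a ratio of all peak bases of 1.73, 0.391 and 0.437 in these arms. Per Mb covered by the list, the Tcf4 ratio was 0.576 in SIT, 3.71 in the left arm and 1.27 in the right arm, so in the right arm the direction turned with the scale. As a share of the list, the rest of chromosome 18 moved in the same direction as Tcf4. Without Tcf4 it held 3.0% and 4.85% of the peak bases of the exercised and sedentary SIT lists, 4.33% and 2.5% of the left lists, and 4.76% and 4.59% of the right lists. The chromosome makes up 3.44% of the length of chromosomes 1 to 19 and X. In bases the directions were opposite in the left arm, where peaks outside Tcf4 covered 1.23% of the chromosome in the exercised list and 1.82% in the sedentary list. They were alike in the right arm, at 1.29 and 2.84%, and in SIT the values were 2.65 and 2.48%. As a share of the peak bases of its own chromosome, Tcf4 held 6.79% and 7.25% in SIT, 14.2% and 7.15% in the left arm, and 9.52% and 7.90% in the right arm, or ratios of 0.937, 1.98 and 1.21. Across these scales only the SIT and left arms kept 1 direction, and those directions were opposite.

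**Figure D4:**
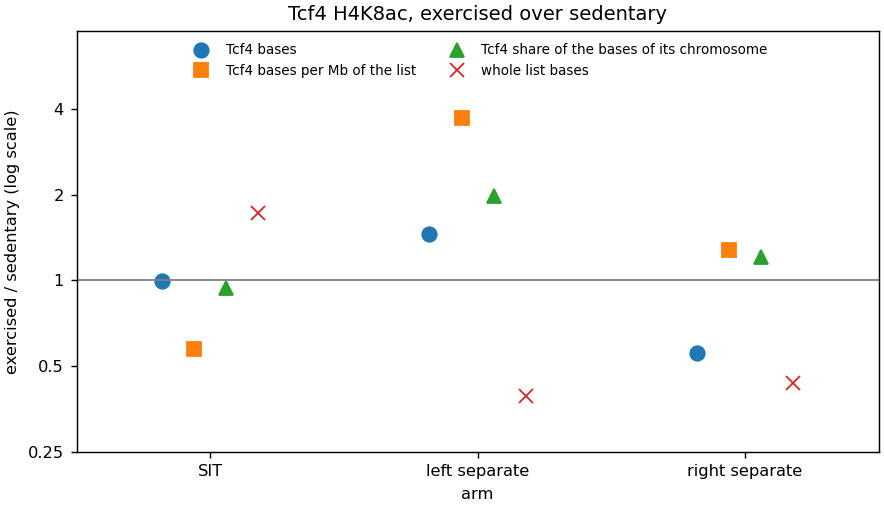
Ratio of exercised to sedentary H4K8ac values (log axis) in each arm for Tcf4 bases (circles), Tcf4 bases per Mb of the list (squares), the Tcf4 share of the peak bases of its chromosome (triangles) and all bases of the list (crosses); each point compares 1 pooled list with 1 other. In the right arm the circle is at 0.557 and the square at 1.27, on opposite sides of 1.

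The bases of Tcf4 shared by a pair of lists, as a percent of the bases covered in either, had a median of 43.3% over 15 pairs inside the gene (31.0 to 56.9%). This share rises with the part of a gene that is covered, and no value expected at this coverage was computed. Over the whole genome, which was covered far more thinly, the median was 22.1% (18.3 to 33.4%). The median was 40.3% for the 3 pairs of the same arm, 44.8% for the 6 pairs of the same condition and 48.1% for the 6 pairs that shared neither, with overlapping ranges. Over the genome these medians were 22.1, 22.3 and 21.2%. Of the exercised Tcf4 peaks, 69.4% (34 of 49) overlapped a sedentary peak by at least 1 bp in SIT, 75.6% (31 of 41) in the left arm and 87.5% (42 of 48) in the right arm. In the other direction, 71.7% (43 of 60), 71.8% (51 of 71) and 49.1% (26 of 53) of the sedentary peaks overlapped an exercised peak in these arms. When the overlap had to reach 50% of both peaks, the exercised shares were 32.7, 26.8 and 20.8% and the sedentary shares 26.7, 15.5 and 18.9%. Bases covered in all 3 exercised lists and no sedentary list came to 565 bp, 0.163% of the gene, and the reverse to 3494 bp, 1.01%.

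The genes whose profile of assigned kb over the 12 lists was most like that of Tcf4 were Celf4, Mir145b, Impact, Calm2 and Pcdh1, with Pearson r on log2(1 + kb) between 0.998 and 0.999. The likeness was dominated by the contrast between marks, as 5235 genes were compared and their median r was 0.847. Over the 6 H4K8ac lists alone r was 0.953 for Celf4 and 0.686 to 0.847 for the other 4. Celf4, Mir145b, Impact and Pcdh1 lie on chromosome 18, as Tcf4 does, and Calm2 on chromosome 17.

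Tcf12, the E-protein HEB, is on the minus strand of chromosome 9 from 71842688 to 72111871, a gene of 269 kb. Its H4K8ac was far sparser than that of Tcf4. The SIT lists gave 9335 bp exercised and 5619 bp sedentary, the left lists 5053 and 11015 bp, and the right lists 6183 and 8235 bp, in 3 to 7 peaks. Peaks covered 0 to 2.56% of the gene, against 0.233 to 2.33% at the median of long genes. None of the 27 peaks was at a promoter and none covered any of its 20 start sites. Of these, 14 were distal intergenic and 11 intronic. The most constant was the intergenic stretch shown above, at -22.3 to -21.2 kb from the start, whose 1049 shared bases were covered in 6 of 6 lists. Another, at -68.7 to -68.4 kb, was covered in 5 lists, and one more, in an intron 232 kb downstream of the start, in 4. The direction of exercised against sedentary bases differed between SIT (1.66) and the other arms (0.459 left and 0.751 right), and followed that of the whole lists (1.73, 0.391 and 0.437). Per Mb of the list the ratio was 0.961 in SIT, 1.17 in the left arm and 1.72 in the right arm, so the direction turned in each arm.

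Tcf3 (E2A, chromosome 10, 80409514 to 80433647, minus strand) had neither mark on its gene. No H4K8ac peak was assigned to it, although 1 peak of the exercised SIT list, assigned to another gene, came within 1513 bp of its 3′ end. H3K27me3 assigned to it was distal intergenic, and no H3K27me3 peak came closer than 15818 bp to the gene. It amounted to 2234 bp in the exercised and 6624 bp in the sedentary SIT list, 8839 bp and 0 in the left lists, and 0 and 5832 bp in the right lists. By assigned symbol Tcf3 was listed in the exercised and not the sedentary left list, as were 18.5% of the genes listed there in either condition, and the reverse held in the right arm, as for 43.6%. Neighbouring peaks were assigned to Onecut3, and part of the SIT and left differences, but not of the right one, was a change of symbol. Counting any peak within the 9621 bp that Tcf3 peaks occupied in at least 1 list, the SIT lists covered 4255 bp exercised and 6624 bp sedentary, the left lists 8839 and 1780 bp, and the right lists 0 and 7773 bp.

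The 4 ID genes are short, between 1160 and 4799 bp, and divided between the marks. Id2 (chromosome 12, 25093799 to 25097140, minus strand) alone of them had H4K8ac, with 1 promoter peak in each of 4 lists. It measured 1101 bp in the exercised SIT list, and the sedentary one had none. In the left arm the exercised list had none and the sedentary list 1134 bp. In the right arm the exercised list had 1291 bp and the sedentary list 1709 bp, in peaks that did not overlap. In 3 of the 4 lists the peak covered the 5′-most start site, and their shared 506 bp reached from -449 to 56 bp from it. In the sedentary right list the peak lay 1841 bp or more upstream. Among genes listed in either condition, 27.5% appeared with exercise in SIT and 51.9% disappeared in the left arm, so the state of Id2 in those arms was a common one. Neither difference held with equal peak numbers in the arm.

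Id1 (chromosome 2, 152736251 to 152737410, plus strand) had H3K27me3 at its promoter in 4 lists. The peak measured 3859 bp in the exercised SIT list, 3947 bp in the sedentary left list, 1781 bp in the exercised right list and 2296 bp in the sedentary right list, and there was none in the sedentary SIT and exercised left lists. It spanned the whole gene in 3 lists. In the exercised right list it began 973 bp downstream of the start and covered 16.1% of the gene. Like Id2, Id1 appeared in SIT and disappeared in the left arm, in this case for H3K27me3. In SIT 41.4% of genes listed in either condition appeared, and in the left arm 9.13% disappeared. By assigned symbol, the 4 combinations of arm and condition with Id1 H3K27me3 were also the 4 with Id2 H4K8ac. By a peak on the gene span Id1 kept 4 lists and Id2 had 3, and with equal peak numbers in the arm Id1 had 3 and Id2 1. A link between the genes was not tested.

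Id3 (chromosome 4, 136143497 to 136145755, plus strand) was covered whole by an H3K27me3 promoter peak in 6 of 6 lists. Its assigned bases were 17.0 kb in the exercised and 10.1 kb in the sedentary SIT list, 14.8 and 10.6 kb in the left lists, and 6.20 and 19.3 kb in the right lists. The 6 promoter peaks shared 6201 bp, from -2168 to 4032 bp from the start, which is the whole peak of the exercised right list. Further peaks were distal: a stretch at -40.5 to -38.7 kb was covered in 4 lists, and another, at -9843 to -7976 bp, in 3. Per Mb of the list, exercised over sedentary was 0.893 in SIT, 1.12 in the left arm and 0.892 in the right arm, a narrower range than the 1.68, 1.40 and 0.321 of the bases themselves.

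Id4 (chromosome 13, 48261228 to 48266026, plus strand) had the most H3K27me3. The SIT lists assigned 75.7 kb exercised and 44.1 kb sedentary, the left lists 45.3 and 50.7 kb, and the right lists 13.7 and 58.9 kb, in 3 to 11 peaks. Most of it was not on the gene. Of the 43 peaks, 35 were classed as intronic, in a neighbouring transcript, and they reached back 106 to 121 kb from the Id4 start. A stretch of 7709 bp, from -105018 to -97310 bp, was covered in 6 of 6 lists. A separate peak of 13463 to 17376 bp lay over Id4 itself in 5 lists. It was assigned to Id4 in the sedentary left list and to A330048O09Rik in the other 4, and in the exercised right list the nearest peak lay 5064 bp from the gene. The edge of this peak fell close to the start of the gene. It began 1 bp downstream of the start in the exercised SIT list, 300 bp downstream in the exercised left list, 316 bp in the sedentary SIT list and 368 bp in the sedentary right list, and at -376 bp in the sedentary left list. The promoter window printed above thus lay outside the mark in 5 of 6 lists. Per Mb of the list, exercised over sedentary was 0.916, 0.714 and 0.648 in SIT, left and right. The left value compares unlike sets, since the peak over the gene counted for Id4 in the sedentary list alone. Without that peak the left lists held 45335 bp exercised and 37260 bp sedentary, a ratio of 0.972 per Mb and 1.22 in bases, against 0.894 with it.

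**Figure D5:**
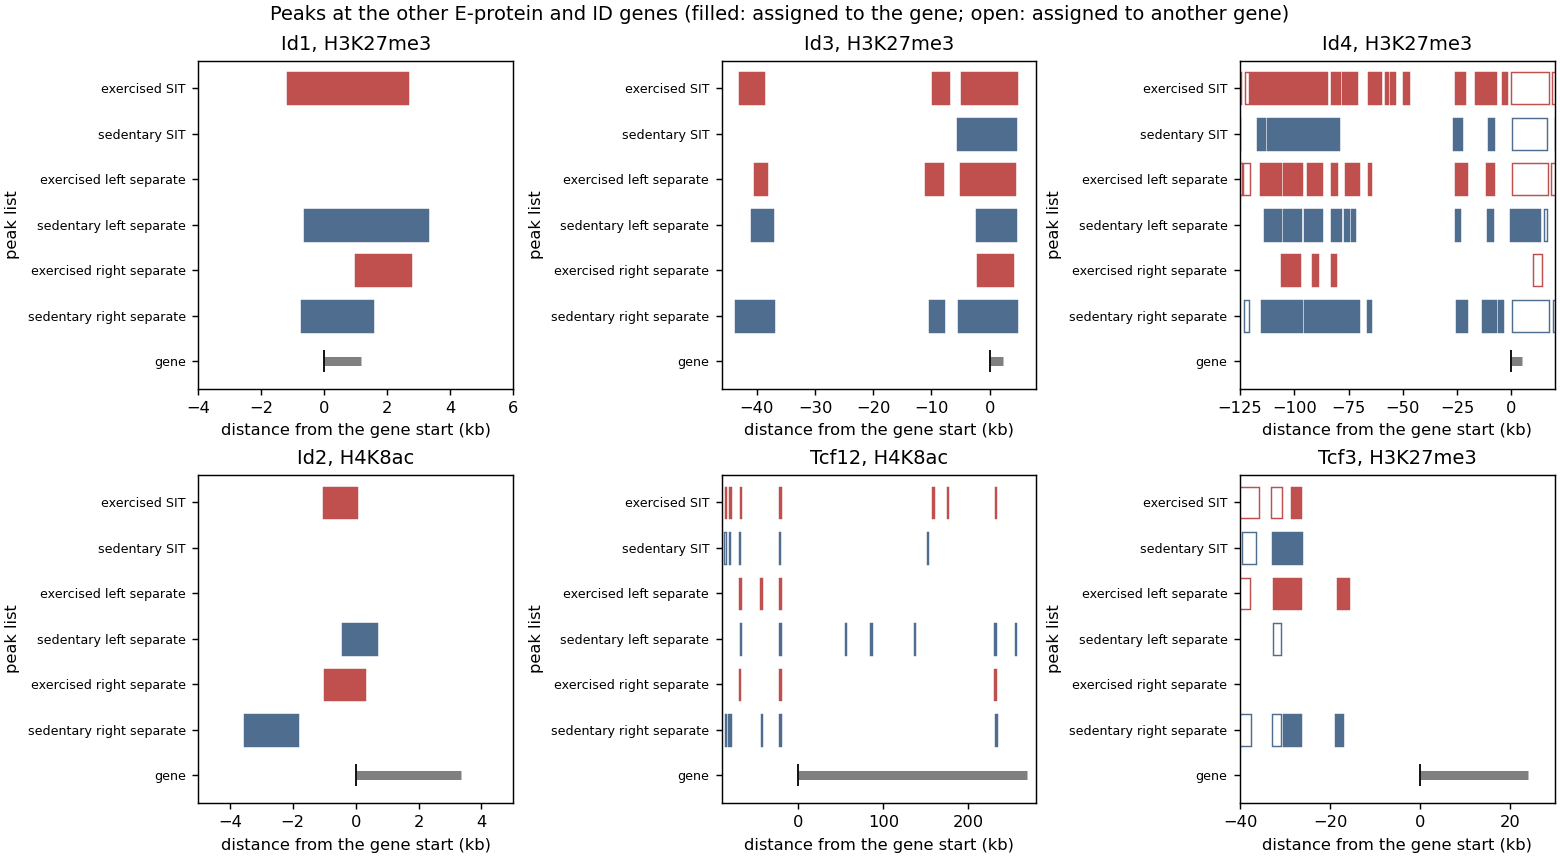
Peaks at Id1, Id3, Id4 and Tcf3 (H3K27me3) and at Id2 and Tcf12 (H4K8ac) in the 6 pooled lists of each mark (red exercised, blue sedentary), by distance in kb from the gene start along its strand; filled boxes were assigned to the gene, open boxes to another gene, and the grey bar is the gene. Id3 is covered in 6 of 6 lists, and 4 of the 5 peaks over Id4 start downstream of the tick at 0.

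By assigned symbol, the class II bHLH factors, with which E-proteins dimerise, were listed more often than protein-coding genes in general. This held in each list of both marks, with larger margins for H3K27me3. Of 43, 26 had H3K27me3 in at least 1 list and 21 in all 6, and 21 to 26 were listed per list (48.8 to 60.5%), against 13.3 to 24.5% of 21924 protein-coding genes. H4K8ac was assigned to 26 of them in at least 1 list and to 10 in all 6, at 15 to 23 per list (34.9 to 53.5%), against 19.6 to 41.2%. Many of these H4K8ac peaks were not on the gene: pairs of a gene and a list numbered 116 by assigned symbol, 61 by a peak on the gene span and 48 by promoter peaks alone. The 3 with the most H4K8ac were Bhlhe22, a factor of cortical projection neurons, at 125697 bp summed over 6 lists, Neurod6 at 59631 bp and Neurod2 at 55903 bp, both differentiation factors of excitatory neurons, and none of the 3 had H3K27me3. The 3 with the most H3K27me3 were Olig3 at 757899 bp, Olig2 at 474339 bp and Olig1 at 368844 bp, the last 2 being factors of the oligodendrocyte lineage, and none of these had H4K8ac. The proneural genes Neurog1, Neurog2 and Neurog3 had H3K27me3 in 6 of 6 lists and H4K8ac in none.

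Both marks were assigned in the same arm and condition to 14 of the 43. Among them, Bhlhe23, Msc and Twist2 were so in 6 of 6 list pairs, Atoh1 and Nhlh2 in 5, Twist1 in 4 and Mesp1 in 3. Atoh8, Tal2, Myf5 and Msgn1 were so in 2, and Tcf15 and Ferd3l in 1. Among 21924 protein-coding genes 13.8% had both in the same arm and condition, and among the members 0 of 7.

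HES and HEY repressors, like ID factors, work against proneural bHLH factors. Of 9, 6 had H3K27me3 and 6 had H4K8ac in at least 1 list. Per list 44.4 to 66.7% were listed for H3K27me3 and 11.1 to 44.4% for H4K8ac, against 13.3 to 24.5% and 19.6 to 41.2% of protein-coding genes. Hey1 was the only one listed for H4K8ac in 6 of 6 lists, with 21974 bp in sum, followed by Hes1 at 5781 bp and Heyl at 1533 bp. For H3K27me3 Hes1 came first, at 65978 bp, then Heyl at 44446 bp and Hes3 at 29699 bp. Hes1, Hes3, Hey2 and Heyl were assigned both marks in at least 1 list pair. BMP receptors and SMADs relay the signal that turns on Id genes. Of 8, 7 were assigned H4K8ac and 4 H3K27me3 in at least 1 list, against 52.0% and 28.1% of protein-coding genes. Per list 25 to 75% of the 8 were listed for H4K8ac and 37.5 to 50% for H3K27me3. Smad5, a BMP-activated SMAD, came first for both marks, with 28176 bp of H4K8ac and 132673 bp of H3K27me3, and Smad4, the common SMAD, had H4K8ac in 6 of 6 lists. Acvr1 (27863 bp) and Bmpr1a (19433 bp), both BMP type I receptors, followed for H4K8ac, and Bmpr1b (101599 bp) and Smad1 (101597 bp) for H3K27me3. Bmpr1b, Smad5 and Smad4 were assigned both marks in at least 1 list pair. All these marks were counted by assigned symbol, and part of the peaks were not on the gene. By a peak on the gene span, pairs of a gene and a list went from 14 to 4 for HES and HEY H4K8ac and from 32 to 22 for their H3K27me3. For BMP receptors and SMADs they went from 28 to 19 for H4K8ac and from 19 to 8 for H3K27me3.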

How the data were processed

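The 60 CUT&RUN-seq samples, of which the 20 IgG samples were not analysed here, were grouped by the labels into antibody, condition and arm. Per the study's methods, the authors checked reads with FastQC 0.11.9, aligned them with Bowtie2 2.4.1 to mm10, called peaks with SEACR (stringent) and annotated them with ChIPseeker 1.8.6. Some exercised H4K8ac libraries, from SIT and from the separate isolations, were left out there for a high false discovery rate. The lists do not say how libraries were pooled. Per the file headers, the deposited lists hold peak positions, widths and distances in bp and no signal, count or p-value, so no count test applied. The study's methods state a minimum depth per library, and the depth behind each pooled list is not given in the sources used here. A list from fewer or shallower libraries can hold fewer or narrower peaks, which bears on every comparison of exercised with sedentary lists.

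Any peak carrying the symbol of a gene made that gene listed. Promoter peaks, as the lists class them, lie up to 3000 bp from a start site. Gene spans and start sites came from GENCODE M21 (GRCm38) and sequences from RefSeq GRCm38.p6, whose promoter windows matched the genome in 66 of 66 compared. Overlap meant at least 1 bp. Interval arithmetic (Python 3, numpy, pandas) was tested on simulated intervals. All members were named, with the 3 partner genes of each list with the most bases per mark, partner genes with both marks in a list pair (1 of which is not reported here), and the 5 genes most like Tcf4 among those listed in at least 5 H4K8ac lists. Single genes chosen after their values were seen are the neurogenins, the marker genes and the genes that rank first beside Tcf4. The members and gene lists were chosen with earlier results of these data known. Alternatives were the widest 50% of peaks, equal peak numbers within an arm, any peak on the gene span, promoter peaks alone, no distal peaks, scaling per Mb of the list, and reciprocal 50% overlap. Scaling by the chromosome, leaving out the widest Tcf4 peak, each list or the peak over Id4, and counting any peak in the stretches of Tcf3 peaks were added after seeing the data.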

Additional observations from a re-analysis of the deposited data

Results flagged for a closer look

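By unscaled bases or by presence in a list, every member had a mark whose exercised and sedentary lists differed in opposite directions between arms. Each difference rested on 1 pooled list per condition, and none was tested. Per Mb of the list, Id4 H3K27me3 had 1 direction, at 0.916 in SIT, 0.714 in the left arm and 0.648 in the right arm. The left value was 0.972 without the peak over the gene. H3K27me3 assigned to Tcf3 was in the exercised and not the sedentary left list (8839 bp), and in the sedentary and not the exercised right list (5832 bp). The sedentary left list held 1780 bp of the same stretches, assigned to Onecut3. Id1 H3K27me3 appeared in SIT (3859 bp) and disappeared in the left arm (3947 bp). Id2 H4K8ac appeared in SIT (1101 bp) and disappeared in the left arm (1134 bp), and neither held with equal peak numbers in the arm. The ratio of exercised to sedentary Tcf4 H4K8ac bases was 1.45 in the left arm and 0.557 in the right arm. The same ratio for Tcf12 H4K8ac was 1.66 in SIT, 0.459 in the left arm and 0.751 in the right arm. Per Mb of the list it was 0.961, 1.17 and 1.72, on the other side of 1 in each arm. For H3K27me3 the ratio of bases was 1.68, 1.40 and 0.321 at Id3 and 1.72, 0.894 and 0.233 at Id4. The left value of Id4 was 1.22 without the peak over the gene, assigned to Id4 in the sedentary left list alone. In SIT the exercised list was the larger of the pair for both marks, and in the left H4K8ac arm and both right arms it was the smaller.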

How the results depend on the processing

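No paired analysis was possible because each list pools the libraries of its group and carries no replicate number, and for the same reason no replicate could be left out. Of 118 alternative values over 50 results, 83 stayed within 1.5 times the main value on the same side of 1. Another 32 moved further and 3 turned direction. The per Mb ratios of Tcf12, Id3 and Id4 were not counted here as alternatives to their ratios in bases. The exercised over sedentary ratio of Tcf4 in the right arm turned from 0.557 to 1.27 per Mb of the list and to 1.21 as a share of the chromosome, and that of Id4 in the left arm from 0.894 to 1.22 without the peak over the gene. Per Mb the SIT ratio went from 0.996 to 0.576 and the left ratio from 1.45 to 3.71. With equal peak numbers the left ratio was 2.58, as the sedentary left list fell to 71494 bp at Tcf4. Leaving out each list in turn, the bases of Tcf4 covered in every other list ranged from 38407 to 60161 bp, against 36807 bp.

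With promoter peaks alone, gene and list pairs of the members went from 16 to 10 for H4K8ac (Tcf12 was lost) and from 20 to 12 for H3K27me3 (Tcf3 was lost, and Id4 in 4 lists). Gains and losses of H4K8ac, 1 each, became 2 each by gene span and 0 each among the widest 50% of peaks, and with equal numbers the losses became 0 and the 1 gain was Id2 in the right arm, so that the Id2 gain in SIT and loss in the left arm both ended. H3K27me3 gains went from 2 to 1 by gene span. On the gene with 3 kb on each side, H3K27me3 at Tcf3 went from 23529 to 0 bp and at Id4 from 288424 to 83191 bp. At reciprocal 50% overlap, exercised Tcf4 peaks overlapped went to 32.7, 26.8 and 20.8% in SIT, left and right, and those of sedentary peaks to 26.7, 15.5 and 18.9%. For H4K8ac, gene and list pairs with promoter peaks alone went from 116 to 48 for bHLH partners, 14 to 3 for HES and HEY genes and 28 to 11 for BMP receptors and SMADs. By gene span the first of these became 61 and the second 4. For H3K27me3 the BMP receptors and SMADs went from 19 to 6 with promoter peaks alone and to 8 by gene span. Depth limits every absence: a gene not listed may lie below the threshold of its list.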
